A study of Mus musculus with 18 samples.

Results

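The odorant receptor (OR) genes described here are the 238 genes with symbols numbered from Olfr987 to Olfr1314, leaving out the 6 pseudogene rows of that range, which carry the suffix -ps. The rule that picks them reads the symbol and no expression value, and they make up 238 of the 1097 OR genes without that suffix and of the 23359 gene symbols in the table. All 238 lay on mouse chromosome 2, where 236 were placed by the GENCODE M21 annotation of GRCm38 and the other two, Olfr1182 and Olfr1213, by RefSeq. The range held 2 blocks of genes and not a single cluster. The proximal block ran from position 85330779 to 90292841 and held 205 genes, Olfr987 to Olfr1272. The distal block ran from 111230360 to 112096781 and held 33 genes, Olfr1275 to Olfr1314, after a gap of 20937519 bases. In the annotation 237 of the 238 were protein coding and 1, Olfr1010, was a polymorphic pseudogene. The files do not give the receptor class, so the assignment of these genes to class II was not checked against sequence.

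ORs are G protein-coupled receptors, each of which sits in the cilia of the olfactory sensory neurons (OSNs) that make it and opens the cyclic nucleotide-gated channel through the olfactory G protein and adenylyl cyclase. A mature OSN expresses a single OR allele out of the whole family. The level of a given OR in a pool of OSNs therefore depends in part on how many of its cells chose that OR. Choice depends on the homeodomain factor Lhx2, the Ebf factors, and enhancers that contact OR clusters on many chromosomes. A small set of OSNs expresses a trace amine-associated receptor (TAAR) instead.

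The values came from main olfactory epithelium (MOE) of mice that carry a Cre knock-in at a Taar gene and a Cre-dependent reporter. In the Taar5 line, Taar5-ires-Cre; lox-L10-GFP, 7 libraries of reporter-positive cells (Taar5+) and 9 of reporter-negative cells (control) were made at postnatal day 11 to 14 per the labels. In the Taar6 line, Taar6-ires-Cre; lox-ZsGreen, there was 1 library of reporter-positive cells (Taar6+) and 1 control at postnatal day 16 to 17, while the reporting summary of the study gives an older age in weeks. The strain was C57BL/6 per the labels and a mix of C57BL/6J and 129 per the study's reporting summary. Both the positive and the negative cells of a line carry the knock-in and the reporter. Cre was made from the Taar5 or Taar6 transcript, so the reporter marks cells that expressed that gene at any time, and the control cells are all sorted cells without reporter, not a purified OR population. The labels do not say that libraries of a group came from separate animals, so p-values measure only the spread between these libraries.

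Expression is given as TPM, the share of a library's transcripts corrected for gene length, so that levels can be compared between genes. How deeply a library was sequenced cannot be read from TPM, and the counting error of each value is unknown. Control replicate 2 and Taar5+ replicate 5 stood apart from their groups. Control replicate 2 had 5939 gene rows above 0, while the other controls of the Taar5 line had from 11352 to 17015. In all 13 Taar rows above 0, control replicate 2 repeats the values of replicate 1, which were therefore counted once, but none of its values for the 238 receptors was shared with another library. Taar5+ replicate 5 had 17808 rows above 0, the most of any library, and the lowest summed Taar level of the Taar5+ group, 1517 TPM beside 4542 to 7804 TPM in the others. Sums and counts of calls are given below with and without them. The fold changes of the receptors with the highest control means are given with and without control replicate 2, but not without Taar5+ replicate 5. The mature OSN markers fixed for the label check (Omp, Cnga2, Cnga4, Cngb1, Ric8b, Stoml3) were present in each group, with summed levels of 13632 to 46832 TPM in controls and 20322 to 26366 TPM in Taar5+ libraries.

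The upstream sequences of these receptors are shown first, as a description. Their part in the levels given below was not tested. RefSeq promoter windows on GRCm38.p6, from 250 bases before to 50 bases after the start of the gene model, were found for 197 of the 238 receptors, in 199 windows. In 144 of these windows (72.4%) the model starts at the ATG, that is, without a 5′ untranslated region, so that the window lies upstream of the coding start and not of a mapped transcription start. GENCODE gave a 5′ untranslated region for 217 of the receptors. The homeodomain motif TAATNA, of the kind bound by Lhx2, was searched on both strands and was found in 158 of 199 windows (79.4%). It occurred in 62.7% of the windows of the other OR genes and in 26.5% of all 32851 promoter windows. The Olf/Ebf-type motif CCCNNGGG was in 5 of 199 windows (2.51%), in 3.17% of those of other OR genes and in 13.7% of all windows. The windows of these receptors had a mean GC content of 31.9%, compared with 37.2% for those of other OR genes and 53.8% over all windows. The fixed bases of TAATNA are all A or T, and its share was higher in the sets of lower GC content. Whether the shares exceed what base composition alone would give was not tested. Among the 55 windows that did not start at an ATG, 85.5% held TAATNA and 9.09% held CCCNNGGG, compared with 25.0% and 14.2% of all windows that did not start at an ATG. A match describes letters in the window and is not a bound site. Matches of the 2 motifs cannot overlap each other.

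Among the receptors with the highest mean TPM in either group, those in the following lines had a window that did not start at an ATG. They are printed 5′ to 3′ on the strand of the gene, with TAATNA or CCCNNGGG and their reverse complements in capitals.
Olfr1134, chr2:87658408-87658707, minus strand: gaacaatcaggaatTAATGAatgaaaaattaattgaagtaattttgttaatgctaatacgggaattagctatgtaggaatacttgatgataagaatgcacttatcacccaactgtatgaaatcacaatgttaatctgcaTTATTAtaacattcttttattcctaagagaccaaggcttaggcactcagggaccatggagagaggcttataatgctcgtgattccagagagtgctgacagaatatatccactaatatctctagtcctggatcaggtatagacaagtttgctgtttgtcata
Olfr1030, chr2:85979062-85979361, plus strand: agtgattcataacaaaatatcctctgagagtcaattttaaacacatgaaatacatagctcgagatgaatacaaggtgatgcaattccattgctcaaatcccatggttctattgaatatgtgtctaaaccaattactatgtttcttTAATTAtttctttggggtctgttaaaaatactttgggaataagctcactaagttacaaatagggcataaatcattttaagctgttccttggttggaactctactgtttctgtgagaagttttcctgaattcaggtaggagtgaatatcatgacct
Olfr1213, chr2:88980218-88980517, minus strand: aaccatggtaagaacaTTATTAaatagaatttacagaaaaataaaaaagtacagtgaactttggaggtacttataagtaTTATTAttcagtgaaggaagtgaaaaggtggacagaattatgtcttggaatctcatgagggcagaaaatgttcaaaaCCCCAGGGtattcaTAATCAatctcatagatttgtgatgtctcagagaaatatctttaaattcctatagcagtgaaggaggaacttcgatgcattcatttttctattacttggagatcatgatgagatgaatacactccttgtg
Olfr1140, chr2:87745911-87746210, plus strand: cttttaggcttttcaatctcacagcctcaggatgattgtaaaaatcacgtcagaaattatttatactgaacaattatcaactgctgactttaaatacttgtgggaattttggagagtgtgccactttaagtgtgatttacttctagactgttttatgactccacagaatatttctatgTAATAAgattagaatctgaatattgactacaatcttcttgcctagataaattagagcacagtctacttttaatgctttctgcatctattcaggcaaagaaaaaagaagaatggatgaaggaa
The window of Olfr1213 held both kinds of motif, with 3 TAATNA matches and 1 CCCNNGGG match. The single run in capitals in Olfr1030 is a palindrome and counts as 2 matches, 1 on each strand. The RefSeq start of Olfr1030 lies 36 bases from the nearest GENCODE start and that of Olfr1140 lies 307 bases away, so the window of Olfr1140 may not cover the start used in these cells.

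The chromosome 2 receptors were found at lower levels in Taar5+ cells than in control cells, in sum and for nearly each gene. Their summed level was 3209 ± 1432 TPM (SD, n = 9) in controls and 287 ± 380 TPM (SD, n = 7) in Taar5+ libraries, that is, 8.93% of the control mean. In the controls the sum was lowest in replicate 2, at 536 TPM, had a median of 3280 TPM and was highest in replicate 8, at 5212 TPM. In the Taar5+ libraries it was lowest in replicate 7, at 54.2 TPM, had a median of 140 TPM and was highest in replicate 5, at 1118 TPM. The groups overlapped only through those libraries: Taar5+ replicate 5 was above control replicate 2, and no other Taar5+ library came above any control. Without both, the controls had 3543 ± 1093 TPM (SD, n = 8, from 2023 TPM) and the Taar5+ libraries 148 ± 111 TPM (SD, n = 6, up to 363 TPM), that is, 4.18%. Leaving out Taar5+ replicate 5 alone gave 4.61%. The difference of the group means of log2(sum + 1) was -4.03, from -4.48 to -3.76 when each library was left out in turn. In pools of sorted cells, fewer cells that chose a receptor and less RNA per cell cannot be told apart.

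Taar5+ replicate 5 also carried the highest summed level of horizontal basal cell markers (Krt5, Krt14, Trp63), 181 TPM, beside 0 to 17.5 TPM in the other Taar5+ libraries and 0 to 123 TPM in controls. Its sustentacular markers (Cyp2g1, Cyp1a2, Ermn) summed to 6692 TPM, beside up to 1367 TPM in the other Taar5+ libraries, and its microvillar markers (Trpm5, Ascl3, Cftr) to 175 TPM, beside up to 38.7 TPM. Markers of other cells also differed between the groups: the median sum was 98.0 TPM in controls and 5.01 TPM in Taar5+ libraries for horizontal basal cells, and 122 TPM (12.6 to 608 TPM) and 5.73 TPM (0.27 to 175 TPM) for microvillar cells. For immature OSNs (Gap43, Gng8, Dpysl3) it was 1214 TPM (119 to 1847 TPM) in controls and 624 TPM (376 to 1022 TPM) in Taar5+ libraries. Control replicate 2 had 0 TPM of horizontal basal and 6166 TPM of sustentacular markers. All 3 genes of each of these lists were in the table, and none was at 0 in the whole of a group. Their part in the receptor levels was not tested.

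As a share of all OR transcripts, the chromosome 2 receptors took a similar part in both groups. They made up 20.3% ± 6.79 (SD, n = 9) of the summed OR TPM in controls and 20.2% ± 9.01 (SD, n = 7) in Taar5+ libraries. The range was 8.68% to 32.6% in controls and 8.75% to 34.9% in Taar5+ libraries, so the group means differed by far less than the spread between libraries. Without control replicate 2 and Taar5+ replicate 5 the shares were 21.7% ± 5.58 (SD, n = 8) and 20.2% ± 9.87 (SD, n = 6). The Taar6 line had 17.4% in the control and 16.5% in the Taar6+ library. No p-value is given for these sums, since the genes were grouped with earlier results known.

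**Figure D1:**
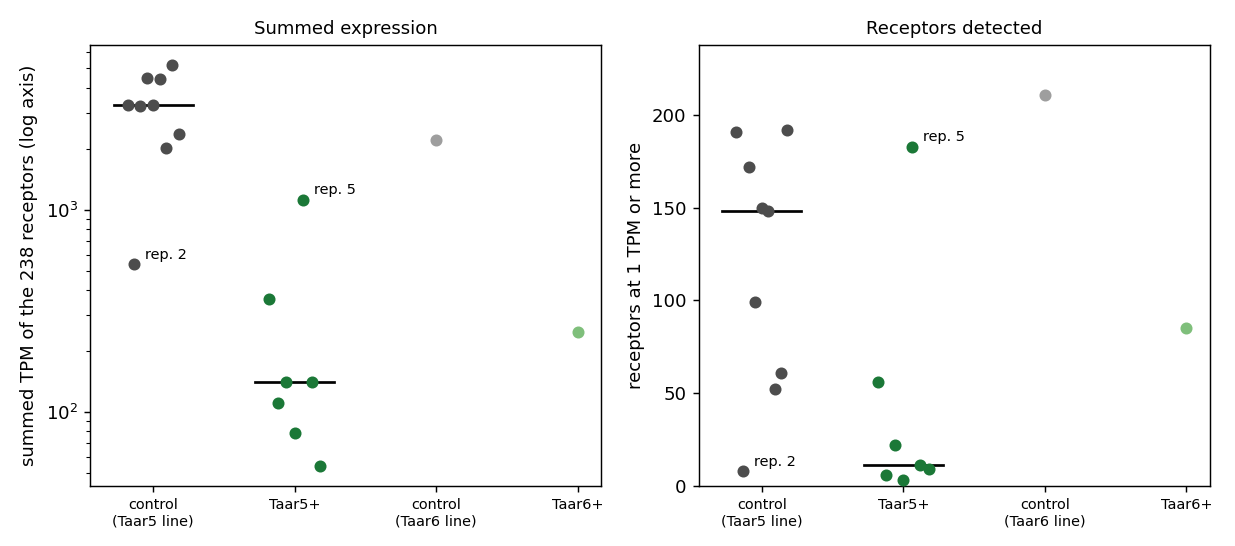
Summed TPM of the 238 receptors on a log axis (left) and number of them at 1 TPM or more (right), with 1 point per library and a line at the median of the groups of 9 and 7. Control replicate 2 lies at 536 TPM and 8 receptors, and Taar5+ replicate 5 at 1118 TPM and 183 receptors, each away from its group.

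Libraries differed widely in how many of these receptors were detected in them, and also in their gene rows above 0. These rows numbered 15540, 5939, 15879, 11352, 15400, 14648, 11706, 11633 and 17015 in control replicates 1 to 9. They numbered 14424, 11331, 13720, 9866, 17808, 11408 and 14495 in Taar5+ replicates 1 to 7. Their part in the counts of receptors was not tested. A receptor was counted as detected at 1 TPM or more. The controls detected 191, 8, 172, 99, 150, 148, 52, 61 and 192 of the 238 in replicates 1 to 9, with a median of 148. The Taar5+ libraries detected 56, 6, 22, 3, 183, 11 and 9 in replicates 1 to 7, with a median of 11. The groups overlapped in both directions: Taar5+ replicate 5 exceeded 7 of the 9 controls, and control replicate 2 fell below 5 of the 7 Taar5+ libraries. In the Taar6 line the control detected 211 and the Taar6+ library 85. The share of these receptors detected was 80.3% beside 81.8% of the other OR genes in control replicate 1, 21.8% beside 27.7% in control replicate 7 and 1.26% beside 0.81% in Taar5+ replicate 4. The widest gap by ratio was in Taar5+ replicate 7, with 3.78% beside 10.8%.

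Across the libraries, 229 of the 238 receptors were detected in at least 1 control of the Taar5 line and 196 in at least 1 Taar5+ library. For 109 of those 196 the only Taar5+ library was replicate 5, and 87 were detected in at least 1 of the other Taar5+ libraries. No receptor was detected in more than 4 of the 7 Taar5+ libraries, and the 3 that reached 4 were Olfr1015, Olfr1030 and Olfr1260, named here for that count. In contrast, 37 were detected in 7 or more controls and 9 in all 8 controls other than replicate 2, namely Olfr1016, Olfr1034, Olfr1036, Olfr1196, Olfr1197, Olfr1200, Olfr1262, Olfr1263 and Olfr1271. Olfr1061, Olfr1128 and Olfr1245 were listed at 0 in all 18 libraries. A value of 0 in such a table may be a failed estimate and does not show absence.

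**Figure D2:**
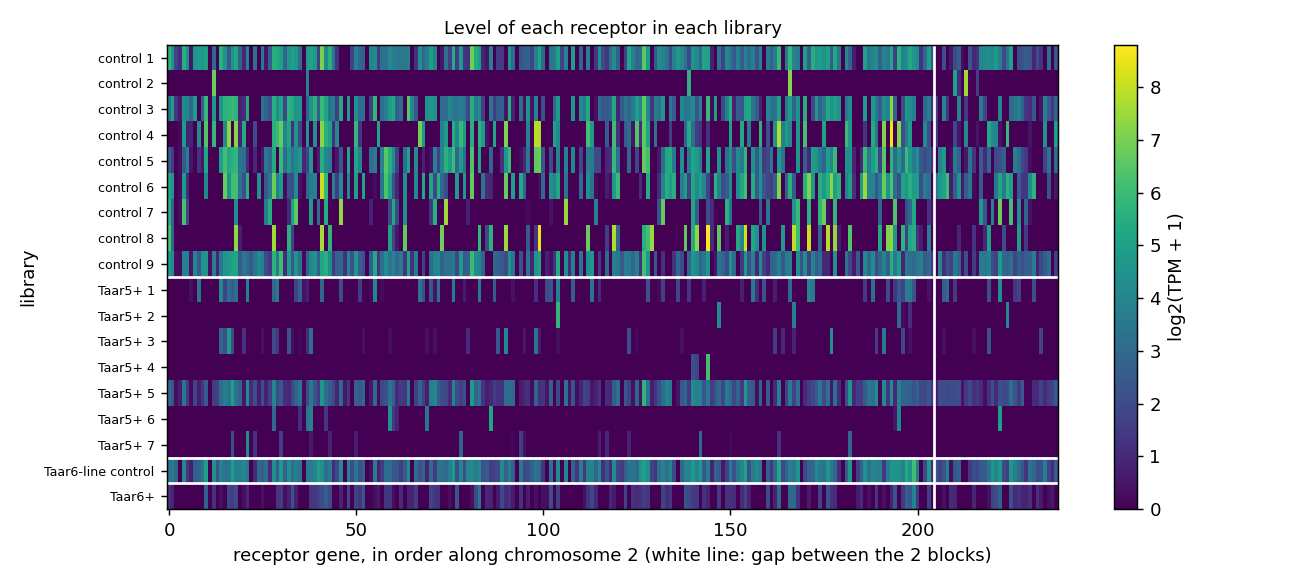
Level of each of the 238 receptors, as log2(TPM + 1), in order along chromosome 2 (columns) in each of the 18 libraries (rows), with a white vertical line at the gap between the proximal block of 205 genes and the distal block of 33. Control replicates 4, 7 and 8 show bright single receptors among zeros, whereas Taar5+ replicate 5 and the control of the Taar6 line show low levels in nearly every column.

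The summed level was spread over many receptors in some libraries and rested on a few in others. The single highest receptor took 2.96% to 9.26% of the summed TPM in the controls other than replicate 2, and 34.9% in control replicate 2. In the Taar5+ libraries it took 4.90% and 4.60% in replicates 1 and 5, and 17.9% to 92.1% in the other five. In Taar5+ replicate 4, Olfr1200 alone, at 72.3 TPM, made up 92.1%. The 10 highest receptors held 20.95% to 57.8% of the sum in the controls other than replicate 2 and 92.8% or more in Taar5+ replicates 2, 4, 6 and 7.

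The leading receptor differed among the Taar5+ libraries. It was Olfr1297 at 17.8 TPM in replicate 1, Olfr1140 at 55.3 TPM in replicate 2, Olfr1014 at 25.3 TPM in replicate 3, Olfr1200 at 72.3 TPM in replicate 4, Olfr1176 at 51.4 TPM in replicate 5, Olfr1118 at 32.6 TPM in replicate 6 and Olfr1020 at 19.6 TPM in replicate 7. No receptor led in more than 1 of these 7 libraries. In the controls Olfr1046 led in replicates 1 (133 TPM) and 6 (274 TPM) and Olfr1258 in replicates 3 (151 TPM) and 4 (379 TPM). The others were led by Olfr1283 (replicate 2, 187 TPM), Olfr1134 (replicate 5, 107 TPM), Olfr1101 (replicate 7, 187 TPM), Olfr1200 (replicate 8, 445 TPM) and Olfr1176 (replicate 9, 70.4 TPM). In both libraries of the Taar6 line the leading receptor was Olfr1264, at 69.3 TPM in the control and 14.7 TPM in the Taar6+ cells.

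The order of the receptors by level was shared to a different degree. Spearman's rho across the 238 genes between a library and the mean of the other controls of the Taar5 line was 0.54 to 0.60 for control replicates 1, 3, 5 and 9, 0.14 to 0.43 for control replicates 4, 6, 7 and 8, and -0.05 for control replicate 2. It was 0.67 for Taar5+ replicate 5 and 0.09 to 0.26 for the other Taar5+ libraries. The control of the Taar6 line had 0.66 and the Taar6+ library 0.37. Genes are not independent replicates and many are at 0 in the sparse libraries, so these values are descriptions only.

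**Figure D3:**
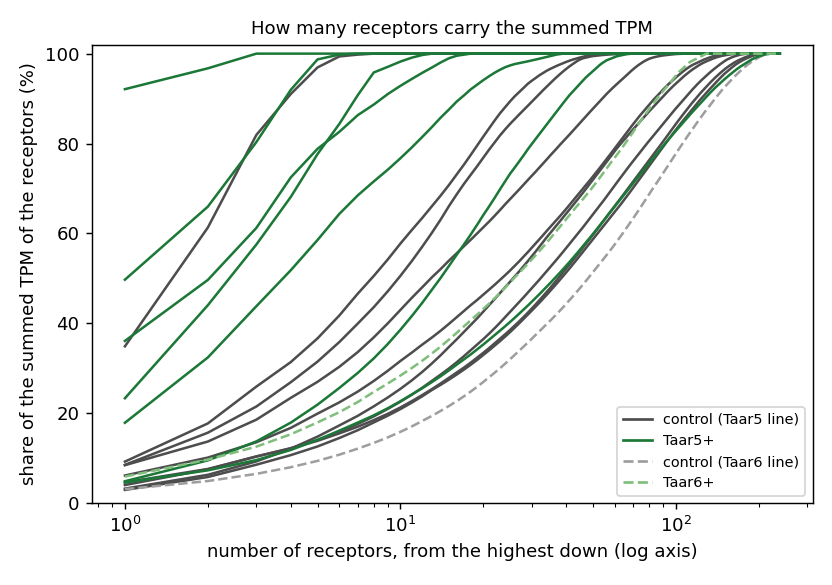
Cumulative share of the summed TPM of the 238 receptors (percent) against the number of receptors counted from the highest down (log axis), with 1 line per library. Taar5+ replicate 4 starts at 92.1% with its first receptor, whereas the controls other than replicate 2 start at 2.96% to 9.26%.

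Single receptors were then compared between the 7 Taar5+ and 9 control libraries with limma on log2(TPM + 1), and p-values were adjusted by Benjamini-Hochberg over all genes tested. Genes that reached 1 TPM in 7 or more of the 16 libraries were tested, which left 101 of the 238 receptors (42.4%). The controls alone would have carried 37 of these past that limit. A receptor that passed only there was bound to be lower in Taar5+ cells. No receptor reached 1 TPM in more than 4 Taar5+ libraries, so the other tested receptors also passed in part through controls. The counts that follow therefore do not speak for the other 137 receptors. Over all 238, the mean TPM was lower in Taar5+ libraries for 229, higher for 6 and listed at 0 in both for 3. The 6 with a higher mean were Olfr1010, Olfr1136, Olfr1151, Olfr1279, Olfr1310 and Olfr1313, all with a mean of at most 0.70 TPM in Taar5+ cells.

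None of the 101 tested receptors passed an adjusted p of 0.05, where 0.168% of all 12502 genes tested passed. All 101 had a negative log2 fold change, with a median of -2.24 and a range from -4.50 to -0.32, while the median over all genes was 0.02. The size of this median depended on the filter and the pseudocount. With no filter on low values it was -1.44 over 235 receptors, of which 5 were higher in Taar5+ cells, and with a pseudocount of 0.1 it was -3.82 over the 101. An unadjusted p under 0.05 with a lower level in Taar5+ cells was reached by 71 of the 101, where 5.38% of all genes reached it, but this count includes receptors that the filter bound to be lower. With no filter it was reached by 89 of 235 receptors, where 4.47% of all genes reached it. The smallest adjusted p in limma among the receptors was 0.0721, for Olfr1016. The same test was run on simulated normal values with 200 of the 12502 genes changed. It recovered 42% of those changed by 2 on the log2 scale and 89% of those changed by 4. The changed genes were drawn from all tested genes, and the many zeros of the receptors were not simulated. These shares therefore do not give the power of the test for the receptors.

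Without control replicate 2, 23 of 100 tested receptors passed the same threshold, all lower in Taar5+ cells, where 0.939% of all genes tested passed in that direction. The median log2 fold change of the receptors was then -2.57 and that of all genes -0.17. The 23 were spread over the range, with 22 in the proximal block, from Olfr987 to Olfr1271, and 1, Olfr1306, in the distal block. With all 16 libraries weighted by limma's array weights, 88 of the 101 passed, all lower, where 10.6% of all genes passed in either direction. Of all OR genes tested, 88.6% passed in that fit. Whether receptors passed the test thus depended on which libraries were used and how they were weighted. In each of these 3 fits every tested receptor had a negative log2 fold change. The filter picked receptors in part through the controls, so this shared direction is not separate support. With no filter 5 of 235 receptors were higher. Without control replicate 3 it was 1 of 66, and without control replicate 6 it was 1 of 68.

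**Figure D4:**
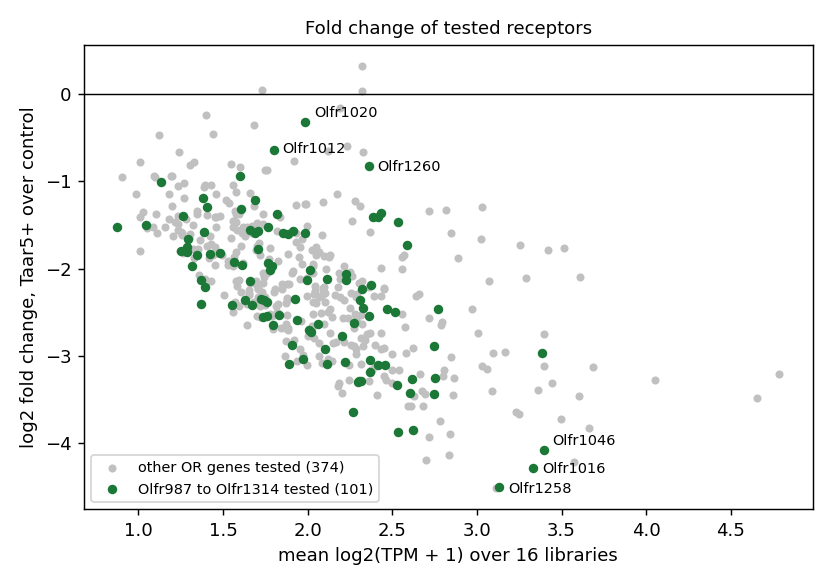
Log2 fold change (Taar5+ over control) against the mean log2(TPM + 1) over the 16 libraries for the 101 tested receptors (green) and the 374 other OR genes tested (grey). The green points lie between -4.50 and -0.32, within the cloud of the other OR genes, and 3 grey points lie above 0.

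Olfr1016 (chr2:85797618-85802544, minus strand, 2 exons) was the receptor with the smallest adjusted p. Its level in controls was 0 TPM in replicate 2 and from 19.0 to 156 TPM in the other eight, with a median of 52.2 TPM over all 9. Among the Taar5+ libraries it was 7.81 TPM in replicate 1, 9.04 TPM in replicate 5 and 0 TPM in the rest. All controls but replicate 2 were therefore above all Taar5+ libraries. Its log2 fold change was -4.28 (SE 0.91, limma adjusted p = 0.0721), and without control replicate 2 it was -4.93 (SE 0.64, limma adjusted p = 0.000527). Over the alternatives tried, its adjusted p ran from 8.47e-07 to 0.214. It shared 0.37% of its 50-base words with other annotated transcripts, so few of its reads could belong to another gene. In the Taar6 line it was 12.8 TPM in the control and 2.88 TPM in the Taar6+ cells.

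With all 9 controls, none of the 101 tested receptors had groups that did not overlap, where this held in the lower direction for 0.04% of all genes. Without control replicate 2 it held for 1 of 100 receptors, Olfr1016, and for 0.193% of all genes.

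The receptors with the highest mean TPM in controls are OR genes like the rest, and the sources used here give no ligand for them. Olfr1258 (chr2:89927309-89936334, plus strand) had the highest control mean, 100 ± 119 TPM (SD, n = 9), with a median of 50.4 TPM and a highest value of 379 TPM in replicate 4, and it was at 0 in control replicates 2 and 7. In the Taar5+ libraries it was at 17.5 TPM in replicate 5 and at 0 in the other six. Its log2 fold change was -4.50 (SE 1.16, limma adjusted p = 0.191), and -5.14 (SE 0.99, limma adjusted p = 0.0160) without control replicate 2. The groups overlapped only through those 2 controls and Taar5+ replicate 5.

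Olfr1046 (chr2:86214987-86219314, minus strand) was also at 0 in control replicates 2 and 7. In the other controls it lay between 36.1 and 274 TPM, and the median over all 9 was 61.3 TPM. Taar5+ replicate 1 had 6.93 TPM, replicate 5 had 25.1 TPM, and the other five were at 0. Every control with any Olfr1046 was thus above every Taar5+ library, with a log2 fold change of -4.08 (SE 1.20, limma adjusted p = 0.259), and of -4.73 (SE 1.04, limma adjusted p = 0.0298) without control replicate 2.

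Olfr1030 (chr2:85979276-85988294, plus strand), whose window is printed above, was the receptor of the 10 highest in controls that was most often seen in Taar5+ cells. Its controls had a median of 46.1 TPM and a highest value of 185 TPM, with 0 in replicates 2 and 7. In Taar5+ replicates 1 to 7 it was at 6.90, 0, 3.09, 0, 15.3, 7.05 and 0 TPM. The log2 fold change was -2.96 (SE 1.08, limma adjusted p = 0.422), and -3.55 (SE 0.93, limma adjusted p = 0.0690) without control replicate 2. No Taar5+ library reached the lowest control above 0, which was 40.4 TPM.

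Olfr1176 (chr2:88336721-88342048, plus strand) had 46.5 to 101 TPM in the 6 controls where it was above 0. It was at 0 in control replicates 2, 6 and 7 and in every Taar5+ library but replicate 5, which had 51.4 TPM. The log2 fold change was -3.43 (SE 1.26, limma adjusted p = 0.435), and -3.96 (limma adjusted p = 0.131) without control replicate 2. Olfr1213 (chr2:88972954-88980267 by RefSeq) was found in the same way in a single Taar5+ library, replicate 5, at 25.2 TPM, and had a median of 24.9 TPM and a highest value of 304 TPM in controls. Its log2 fold change was -3.10 (SE 1.17, limma adjusted p = 0.464), and -3.57 (limma adjusted p = 0.154) without control replicate 2.

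Olfr1200 and Olfr1232 had control means set by a few libraries. Olfr1200 (chr2:88763511-88770488, minus strand) was at 445 TPM in control replicate 8 and from 0 to 58.2 TPM in the others, with a median of 23.5 TPM. Among the Taar5+ libraries it was at 72.3 TPM in replicate 4, 10.5 TPM in replicate 5 and 0 in the rest. Taar5+ replicate 4 was above 8 of the 9 controls, and the log2 fold change was -2.46 (SE 1.20, limma adjusted p = 0.734), or -2.94 (limma adjusted p = 0.304) without control replicate 2. Olfr1232 had 282, 141 and 48.1 TPM in control replicates 8, 6 and 7 and at most 5.65 TPM in the other controls. In Taar5+ replicate 1 it had 15.2 TPM, and its log2 fold change was -2.13 (SE 1.19, limma adjusted p = 0.831), or -2.50 (limma adjusted p = 0.459) without control replicate 2.

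Olfr1134 and Olfr1222 complete the 10 receptors with the highest control means. Olfr1134, whose window is printed above, had a median of 33.2 TPM and a highest value of 373 TPM in controls and at most 1.30 TPM in Taar5+ libraries. It was above 1 TPM in 5 controls and 1 Taar5+ library and so was not tested. Olfr1222 had a median of 24.7 TPM and a highest value of 218 TPM in controls, and was at 12.9 TPM in Taar5+ replicate 5 and at 1.27 TPM in replicate 7. Its log2 fold change was -3.10 (SE 1.15, limma adjusted p = 0.436), and -3.58 (limma adjusted p = 0.134) without control replicate 2.

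**Figure D5:**
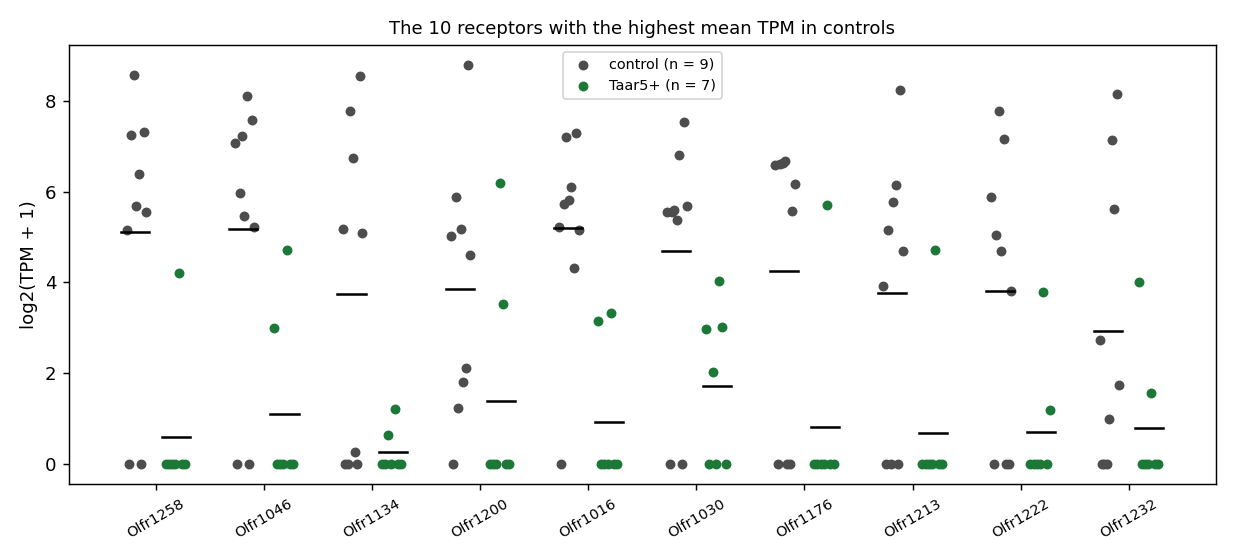
Log2(TPM + 1) of the 10 receptors with the highest mean TPM in controls, with 1 point per library, grey for the 9 controls and green for the 7 Taar5+ libraries, and a line at each group mean. Each receptor has at least 1 control at 0, and all controls of Olfr1016 but replicate 2 lie above all its Taar5+ libraries.

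The receptors with the highest mean in Taar5+ cells rested on 1 to 4 libraries each. Olfr1140 (chr2:87743752-87747581, plus strand) had 55.3 TPM in Taar5+ replicate 2, 14.5 TPM in replicate 1, at most 2.74 TPM in the rest, and from 0 to 41.4 TPM in controls, with a median of 17.2 TPM. Taar5+ replicate 2 was above all 9 controls, while the log2 fold change was -1.46 (SE 1.09, limma adjusted p = 0.935). Olfr1297, of the distal block (chr2:111615233-111626497, minus strand), had 17.8, 3.70 and 28.9 TPM in Taar5+ replicates 1, 5 and 6 and 0 in the others. Its highest control had 106 TPM and the median control 13.1 TPM, and its log2 fold change was -1.41 (SE 1.08, limma adjusted p = 0.937). Both genes overlapped widely between the groups.

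Olfr1020, Olfr1012 and Olfr1260 had the fold changes nearest to 0 among the tested receptors. Olfr1020 (chr2:85847030-85851794, plus strand) was at 13.5, 20.1 and 19.6 TPM in Taar5+ replicates 1, 5 and 7 and at 0 in the others. Its controls were at 0 in replicates 2, 4, 7 and 8 and at most 46.4 TPM, with a median of 1.24 TPM. The log2 fold change was -0.32 (SE 1.06, limma adjusted p = 0.981), and its sign turned when control replicate 3 (0.08) or 6 (0.11) was left out. Olfr1012 had a log2 fold change of -0.64 (SE 1.03, limma adjusted p = 0.970) and Olfr1260 one of -0.82 (SE 1.13, limma adjusted p = 0.959). For these 3 genes the standard error exceeded the fold change, so no difference between the groups was detectable, which does not show that they were alike.

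Olfr1019, which is known as a receptor for trimethylthiazoline, an odour of fox, was present in few libraries. It was highest at 41.1 TPM in control replicate 4, had a median of 1.16 TPM in the 9 controls and reached 1.39 TPM in Taar5+ replicate 3. It was not tested because it passed 1 TPM in 5 controls and 1 Taar5+ library. The Taar6 line had 16.2 TPM in the control and 0.29 TPM in the Taar6+ cells.

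Among the 23 receptors that passed without control replicate 2, several were present in each of the 8 remaining controls. Olfr1196 had a lowest value of 7.96 TPM, a median of 29.4 TPM and a highest value of 42.7 TPM in these controls, and its Taar5+ libraries were at 0 apart from 3.64 TPM in replicate 4 and 17.9 TPM in replicate 5. Its log2 fold change was -3.78 (SE 0.65, limma adjusted p = 0.00694), compared with an adjusted p of 0.177 with all 16 libraries. Olfr1263 had from 7.11 to 45.9 TPM in these controls and at most 11.7 TPM in Taar5+ cells, with a log2 fold change of -3.39 (SE 0.63). Olfr1034 had from 1.09 to 49.8 TPM in these controls and at most 3.71 TPM in Taar5+ cells, with a log2 fold change of -3.75 (SE 0.69). The groups of these 3 receptors overlapped, each through 1 or more Taar5+ libraries above the lowest control. Olfr1154, Olfr1162, Olfr1242 and Olfr1047, which were at 0 in at least 1 further control, had log2 fold changes of -4.13, -4.39, -4.39 and -3.83.

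Sequence shared between neighbouring receptors can move reads from one gene to another. Of the 236 receptors with a GENCODE transcript, 184 shared at least 1 word of 50 bases with another gene, 64 shared over 10% and none over 50%. The median was 2.93% and the highest value 49.8%, between Olfr1282 and Olfr1286. Among the 23 receptors above, Olfr987 and Olfr988 shared 31.7% and 28.3%, each mainly with the other, so their separate values are less certain than their sum. How the authors' counting divided reads that fit several genes is not stated.

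The receptors were expressed along the whole of the 2 blocks. The proximal block summed to 3008 ± 1446 TPM in controls (SD, n = 9) and 262 ± 354 TPM in Taar5+ libraries (SD, n = 7), that is, 8.71% of the control mean. The distal block summed to 201 ± 92.0 TPM and 24.6 ± 28.3 TPM, that is, 12.2%. Without Taar5+ replicate 5 the Taar5+ sums were 132 ± 96.2 TPM and 15.6 ± 17.1 TPM (SD, n = 6), that is, 4.40% and 7.78% of the same control means. By steps of 1 megabase, the control sum was highest from 89 to 90 megabases, at 802 ± 499 TPM (SD, n = 9) for 41 receptors, of which 27 were tested. It was 432 ± 181 TPM for the 30 receptors from 85 megabases and 623 ± 249 TPM for the 46 from 86 megabases. The last step of the proximal block, from 90 megabases, held 8 receptors and summed to 85.5 ± 48.8 TPM. Differences between steps were not tested.

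Of the proximal receptors 93 of 205 were tested, with a median log2 fold change of -2.36, and of the distal receptors 8 of 33, with a median of -1.59. The median of the control means was 8.74 TPM per proximal and 4.59 TPM per distal receptor. A fold change on the log2(TPM + 1) scale understates the change of low genes, and no test of the difference between the blocks was made. In control replicate 2 the distal block took 41.4% of the summed TPM, beside 1.34% to 12.3% in the other controls, with Olfr1283 alone at 187 TPM. Outside control replicates 2 and 4, Olfr1283 reached at most 4.65 TPM in a control, and it shared 25.6% of its 50-base words, mainly with Olfr1280.

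The values of other OR genes were of the same size. In the fit of all 16 libraries the median log2 fold change was -2.11 for 70 tested genes of Olfr543 to Olfr704, which lie on chromosome 7, -2.19 for 36 tested OR genes of chromosome 9 and -2.15 for 268 other tested OR genes, beside -2.24 for the chromosome 2 receptors. None of these OR genes passed the adjusted threshold. Without control replicate 2, 7 of 69, 3 of 35 and 41 of 263 passed in the 3 sets, and 23 of 100 did among the chromosome 2 receptors. All of these were lower in Taar5+ cells, where 0.939% of all genes passed in that direction. Differences between the sets were not tested.

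In the Taar6 line, with 1 library per group and no replicate check, the same direction was seen. The 238 receptors summed to 2213 TPM in the control and 249 TPM in the Taar6+ cells, that is, 11.3%. The level was lower in the Taar6+ library for 217 receptors, higher for 4 and equal for 17. Of the 212 with 1 TPM or more in at least 1 of the 2 libraries, 192 were at least 2-fold lower on the log2(TPM + 1) scale, where 13.8% of all genes were. At that level the control detected 211 receptors and the Taar6+ library 85. A receptor that passed only in the control was bound to be lower, so this count is not separate support for the direction. The median difference of the 212 was -2.25, compared with -2.45 for all OR genes and -0.21 for all genes. The lowest difference in this pair was that of Olfr1104, -4.80, a gene named for that value. Line, reporter and age differ together between the lines and cannot be told apart.

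The genes that serve OR choice, trafficking and signalling had a median log2 fold change of 0.09, and of -0.09 without control replicate 2, beside -2.24 and -2.57 for the tested receptors. A list of 21 such genes held the choice factors (Lhx2, Ldb1, Ebf1 to Ebf4, Emx2, Kdm1a, Atf5), the trafficking proteins Rtp1, Rtp2 and Reep1, which bring ORs to the cell surface, and the transduction genes (Gnal, Gng13, Gnb1, Adcy3, Cnga2, Cnga4, Cngb1, Ano2, Omp). All 21 were tested in the fit of 16 libraries, none passed the adjusted threshold of limma, and none had an unadjusted p under 0.05. Their log2 fold changes ran from -0.53 (SE 0.32) for the channel subunit Cnga4 to 0.68 (SE 0.75) for Reep1. Lhx2 had a log2 fold change of -0.02 (SE 0.33), Gnal, the olfactory G protein, one of 0.24 (SE 0.30) and Adcy3, the adenylyl cyclase, one of 0.38 (SE 0.43). Of the 21, 7 were lower and 14 higher in Taar5+ cells, which turned to 14 lower and 7 higher without control replicate 2, when again none passed and 1, Cnga4, had an unadjusted p under 0.05. With array weights, 2 of the 21 (9.52%) passed, Cnga4 and Lhx2, both lower in Taar5+ cells. This share was near the 10.6% of all genes that passed in that fit.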

How the data were processed

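Cells sorted from the MOE were profiled with Smart-seq2, which amplifies cDNA by PCR without molecular identifiers. Per the submitters' notes the authors used Trimmomatic 0.36, HISAT2 2.1.0, Cufflinks 2.2.1 and DESeq2 with mm10 (GRCm38). The deposited values are TPM, scaled by the authors to a sum of 1000000 per library, except that the column of control replicate 2 exceeds this by the 115 TPM of its repeated Taar rows. How TPM was derived from Cufflinks, the annotation, strand and the handling of reads that fit several genes are not given in the sources used here. TPM keep no depth, so no interval is given.

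The 488 rows that repeat a symbol were added to its first row. Taar rows of control replicate 2 were treated as missing in the fits, so that Taar genes had 8 controls. Tests used limma 3.58.1 (R 4.3.3, eBayes with trend) on log2(TPM + 1), with the pseudocount of 1, for genes at 1 TPM or more in at least 7 of the Taar5-line libraries, with a Benjamini-Hochberg threshold of 0.05. Fold changes on this scale are smaller than the true ones for low genes. Sums, counts and the Taar6 line were described without tests (Python 3.11.15, pandas 2.3.3). Positions are from GENCODE M21 and promoter windows from RefSeq GRCm38.p6. The limma fit was also run on simulated data with known changes.

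The range of symbols and the lists were chosen with earlier results of these data known, although the rule itself reads no expression value. Named genes were the 10 with the highest control mean, the 5 with the highest Taar5+ mean, those past the threshold or with groups that did not overlap (none), the 3 with the highest fold change, the leader of each library, and Olfr1019. Promoters came from the first 2 of these rules. Proteins were not used here. Alternatives were another pseudocount, filter, scaling and variance model, array weights, a replicate block, all 18 libraries, and libraries left out. Replicate numbers were not taken as pairs in the main fit, so its p-values ignore any pairing. Yet 5 of 7 same-numbered pairs had correlated deviations above 0.1, and 4 correlated best with their own number. Whether same-numbered libraries share a sort or animals is not known.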

Additional observations from a re-analysis of the deposited data

Results flagged for a closer look

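In groups of 4 to 10 libraries, a lowest or highest library was set apart by Dixon's gap test at the 95% level in 13 of 52 groups of values, where chance alone flags about 1 in 20. That rate does not apply to the 10 flags on single receptors, since several of these were named for being the highest in 1 library and many are at 0 in the rest. Most of these were Taar5+ replicate 5. In it the 238 receptors summed to 1118 TPM, beside 54.2 to 363 TPM in the other Taar5+ libraries, and 183 of them were detected, beside 3 to 56. The receptors set apart in that library were Olfr1258 at 17.5 TPM, Olfr1176 at 51.4 TPM, Olfr1213 at 25.2 TPM, Olfr1283 at 1.61 TPM and Olfr1101 at 2.63 TPM, each with 0 in the other Taar5+ libraries, and Olfr1222 at 12.9 TPM, beside at most 1.27 TPM. Single receptors were high in other Taar5+ libraries too. Olfr1232 had 15.2 TPM in replicate 1, beside at most 1.97 TPM. Olfr1118 had 32.6 TPM in replicate 6, beside at most 1.01 TPM. Olfr1019 had 1.39 TPM in replicate 3, beside at most 0.44 TPM. Among the controls, replicate 2 was set apart by the distal block, which took 41.4% of its summed TPM (1.34% to 12.3% in the others), and by Olfr1016 at 0 TPM (19.0 to 156 TPM in the others).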

How the results depend on the processing

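The number of receptors that pass depends on which libraries are used, and depth is unknown. With all 16 libraries 0 of the 101 tested receptors and 21 of all genes passed. With array weights 88 of 101 receptors and 1329 of 12502 genes passed. With control replicate 2 and Taar5+ replicate 5 both left out, 35 of 61 receptors tested and 337 of 11915 genes passed. Leaving out 1 library in turn gave 0 to 23 receptors and 16 to 148 genes. The number tested changed as well. The receptor count was 23 of 100 without control replicate 2, where 1.19% of all genes passed in either direction. It was 3 of 87 without control replicate 7 (Olfr1154, Olfr1162, Olfr1258), where 0.226% of all genes passed. It was 2 of 63 without Taar5+ replicate 5 (Olfr1016, Olfr1196), where 0.551% of all genes passed. It was 1 of 80 without control replicate 4 (Olfr1242), where 0.252% of all genes passed, and 0 in the other cases. With the replicate block, on libraries numbered 1 to 7, 0 of 48 receptors and 13 of 11781 genes passed. The same libraries without the block, an alternative added after seeing the data, gave 0 and 16. Of 7 numbers, 4 correlated best with their own partner. The median number of detected receptors was 18 in Taar5+ libraries at any level above 0, and 87 in controls and 4 in Taar5+ libraries at 10 TPM or more. With a library left out it ran from 123.5 to 149 in controls and from 10 to 16.5 in Taar5+ libraries. The sign of Olfr1020 turned (0.0772 without control replicate 3, 0.1062 without control replicate 6, with a range of -0.76 to 0.11). Of the other comparisons of single receptors, 355 kept their sign and their side of the threshold and 26 kept their sign and came to pass it. The causes were not tested.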
